A study of Homo sapiens with 8 samples.

Results

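The genes described here were raised by lapatinib in 2 HER2-amplified breast cancer cell lines and were lowered by no more than 0.25 on the log2 scale when the BET inhibitor JQ1 was added. A gene was taken when its log2(value + 1) was higher with lapatinib than with DMSO by 1 or more in both SKBR-3 and BT474m1, when lapatinib with JQ1 minus lapatinib was -0.25 or more in both lines, and when its value was 100 or more in the lapatinib library of both lines. The genes were thus chosen by the measured values of the DMSO, lapatinib and combination libraries. The rule took 86 of the 20531 genes in the tables, and 0 of these 86 were removed by the filter on low values that left 14429 genes. They make up 0.596% of the genes kept. Of the 86, 82 are protein-coding on the RefSeq annotation, 2 are transcribed pseudogenes, 1 is a long non-coding RNA and 1 was not matched.

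Poly(A) RNA was sequenced from SKBR-3, which lacks the estrogen receptor, and from BT474m1, a derivative of the estrogen receptor-positive line BT474. Each line was given DMSO as vehicle, 300 nM of the HER2 and EGFR kinase inhibitor lapatinib, 300 nM JQ1, or 300 nM lapatinib together with 300 nM JQ1, for 48 h per the labels. This gave 8 groups of 1 library, so that there is no spread between replicates, no test and no p-value, and a gene is called changed at a log2 difference of 1 or more in size, which is 2-fold. Values are normalised read counts, which the authors set to a common upper quartile of 1000. The 95% intervals given with log2 differences cover counting error only. Values are listed under DMSO, lapatinib, JQ1 and the pair of drugs. Each group is 1 culture of 1 established line, and the lines are the only repeat of a comparison.

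HER2 signals through PI3K and AKT, and AKT phosphorylates the FOXO transcription factors and keeps them out of the nucleus. When the kinase is inhibited, FOXO factors can enter the nucleus and switch on genes of growth arrest, autophagy, cell death and feedback to receptors. JQ1 displaces the BET proteins from acetylated chromatin and thereby lowers the transcription of many genes that depend on enhancers.

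The promoters are shown first, because forkhead factors, to which FOXO and FOXA proteins belong, read a short DNA word. The letters searched are those of the forkhead motif that the study drew from regions whose binding, and the expression of nearby genes, rose with lapatinib in its own data. The shares below are therefore not independent of the expression values, and describe the letters of these promoters. RefSeq promoter windows of 300 bases (250 before and 50 after a transcription start, assembly GRCh38.p14) were found for 68 of the 86 genes, with 95 windows in all because some genes have several starts. The words GTAAACA and GTCAACA were searched on both strands. One or the other was present in a window of 14 of the 68 genes (20.6%), against 639 of the 11389 genes kept that have a window (5.61%) and 1863 of all 27305 genes with one (6.82%). Counted by window, the shares were 15 of 95 (15.8%), 4.13% and 5.62%. The 14 genes were ABCA5, CCDC28A, CCNDBP1, FRAT1, HBP1, JMY, MXI1, PCMTD2, PIK3IP1, RTN2, SH3YL1, TCP11L2, TXNIP and YPEL3. The share was not particular to these genes: of the lapatinib-raised genes that added JQ1 lowered at least 2-fold in both lines, 5 of the 22 with a window (22.7%) held the word. Of the other lapatinib-raised genes, 8 of 72 (11.1%) did.

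In 9 of the 14 genes the word lay before the transcription start. The stretches around it are printed for the 5 of them in which it lies before the gene's most upstream listed start and outside the exons of the GENCODE v44 annotation. They are written 5′ to 3′ on the strand of the gene, with the forkhead word in capitals, and TGTTTAC is GTAAACA read from the opposite strand. The coordinates are of GRCh38.p14, the assembly of the RefSeq windows, which may not be the assembly behind the value tables. TXNIP lies on the minus strand of its chromosome, and FRAT1, HBP1, JMY and TCP11L2 lie on the plus strand.
TXNIP, chr1:145996672-145996728, word from 124 to 118 bases before the start: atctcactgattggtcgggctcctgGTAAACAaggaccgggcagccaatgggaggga
FRAT1, chr10:97319214-97319270, word from 32 to 26 bases before the start: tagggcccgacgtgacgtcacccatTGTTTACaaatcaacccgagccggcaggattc
HBP1, chr7:107168805-107168861, word from 173 to 167 bases before the start: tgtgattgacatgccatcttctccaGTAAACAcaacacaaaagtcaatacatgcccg
JMY, chr5:79236072-79236128, word from 34 to 28 bases before the start: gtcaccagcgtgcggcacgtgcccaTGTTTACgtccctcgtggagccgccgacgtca
TCP11L2, chr12:106302483-106302532, word from 232 to 226 bases before the start: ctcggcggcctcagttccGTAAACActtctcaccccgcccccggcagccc
Other words, chosen after seeing the data, were searched in the same way on both strands, and several of the stretches printed hold one. The CCAAT box was found in 32 (47.1%) against 42.9% of the genes kept, and TGACG, of cyclic AMP response elements, in 31 (45.6%) against 39.8%. CACGTG, the word of MYC and related factors, was found in 7 (10.3%) against 12.4%, TATAAA in 7 (10.3%) against 9.08%, and GGGCGG in 49 (72.1%) against 75.2%. The windows were of like composition, with a median of 64.7% G and C against 64.3% for the genes kept. A match is a description of the letters and not of bound factors.

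The values that chose the genes are given once as a description. Of the 218 genes that lapatinib raised in both lines at that level, 86 were taken, added JQ1 lowered 32 at least 2-fold in both lines (as it did 6.31% of all genes kept, raised or not), and 100 were neither. The smaller lapatinib change of the 2 lines lay just inside the limit of 1 for ZNF517 (1.007), APPL2 (1.011) and CEP68 (1.014), and just outside for CLK1 (0.991), BBC3 (0.990) and TSPAN31 (0.987). The smaller change with added JQ1 lay just inside -0.25 for SCIN (-0.249), PPOX (-0.239) and KDM7A (-0.237), and just outside for ZFP14 (-0.256), DENND11 (-0.258) and MLPH (-0.259). The smaller lapatinib value was just above 100 for ABCA1 (100.283), NUTM2A (102.578) and FRAT1 (104.900), and just below for RNF39 (94.181), ERCC6L2-AS1 (90.349) and SMPD3 (88.821). Of all genes kept, 11.1% were at least 2-fold higher with lapatinib than with DMSO in SKBR-3 and 14% in BT474m1, and 4.39% in both lines. The rule used these contrasts, so that the median lapatinib changes of the 86 genes, 1.44 in SKBR-3 and 1.37 in BT474m1, describe the choice.

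**Figure D1:**
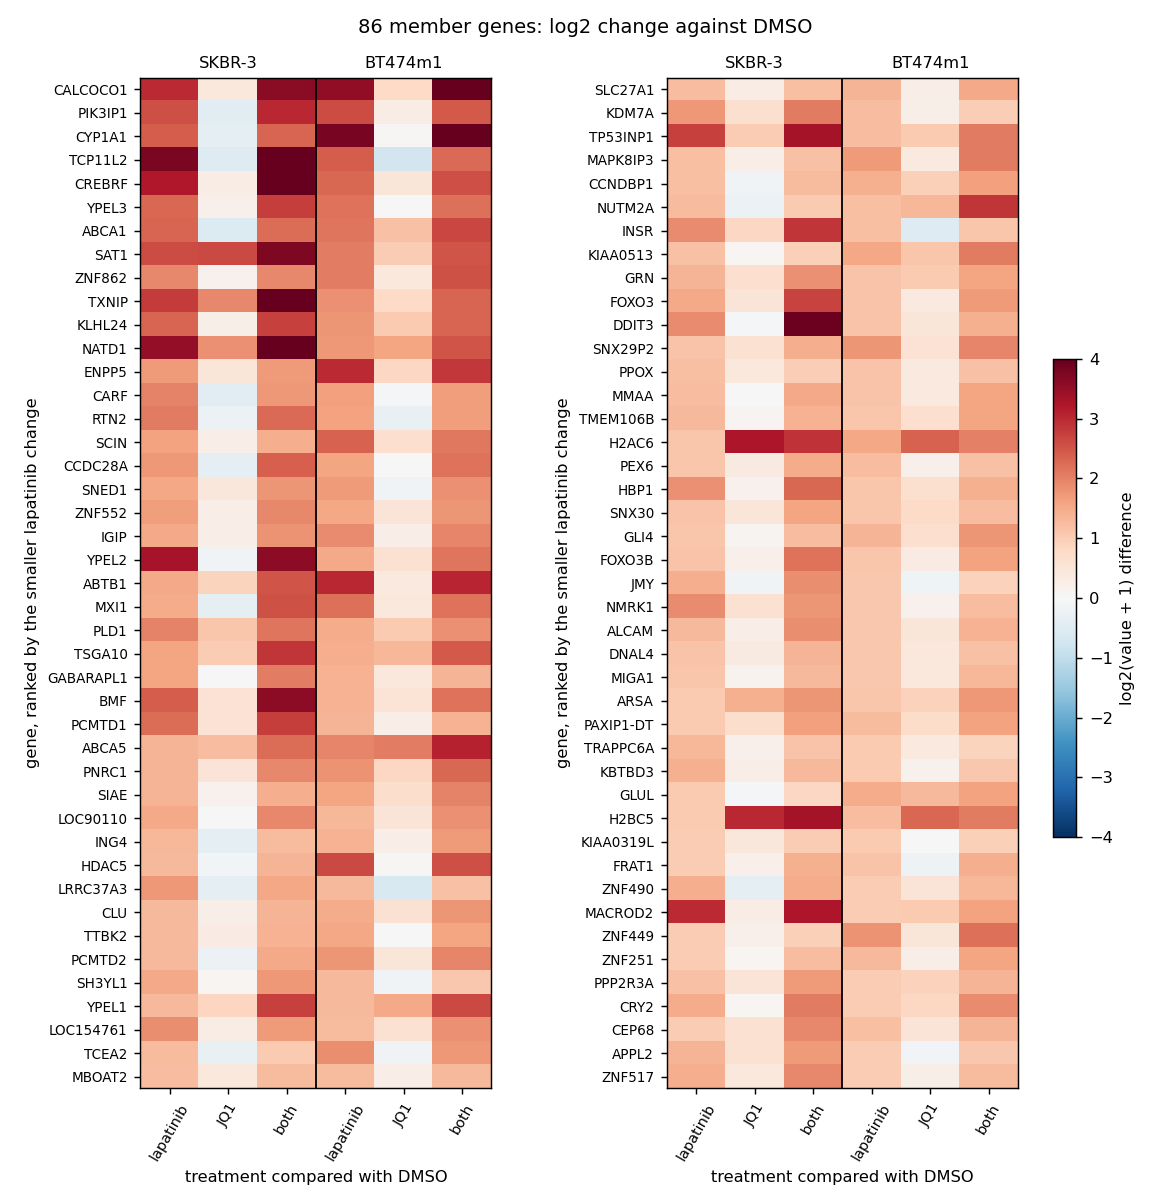
Log2 differences of the 86 genes against DMSO of the same line, ranked down the first and then the second panel by the smaller lapatinib change, for lapatinib, JQ1 and both drugs in SKBR-3 (left columns of each panel) and BT474m1 (right columns). Red is higher than DMSO and blue lower, the scale stops at 4, and 5 values lie above it. The columns of JQ1 alone are mostly pale, with H2AC6, H2BC5 and SAT1 the reddest in SKBR-3.

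The JQ1 library was not used by the rule, although its comparison with DMSO shares the DMSO library that chose the genes. With JQ1 alone, 10 of the 86 genes were at least 2-fold higher than with DMSO in SKBR-3 (11.6%, against 3.75% of all genes kept) and 16 in BT474m1 (18.6%, against 4.81%). The number at least 2-fold lower was 0 in each line, where 11.8% of all genes kept were lower in each line. The 86 had to reach 100 with lapatinib, while all genes kept include lower ones. Of genes kept with a lapatinib value of 100 or more in the line, 6.18% in SKBR-3 and 7.17% in BT474m1 were as much lower. The median of the 86 genes was 0.26 in SKBR-3 against -0.08 for all genes kept (0.11 when the libraries were set to equal totals and 0.35 under a median of ratios scaling), and 0.48 in BT474m1 against -0.06. The counting interval lay above 0 for 46 genes in SKBR-3 (against 25.4% of all genes kept) and for 66 in BT474m1 (against 31.2%). It lay below 0 for 7 genes (against 36%) and for 6 (against 40.2%). In both lines at once, 8 genes rose at least 2-fold with JQ1 alone (9.3%, against 1.16% of all genes kept): SAT1, NATD1, PLD1, TSGA10, ABCA5, TP53INP1, H2AC6 and H2BC5. YPEL3, HDAC5, SH3YL1, JMY and FRAT1 stayed within 0.25 of DMSO in both lines (5.81%, against 20% of all genes kept).

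**Figure D2:**
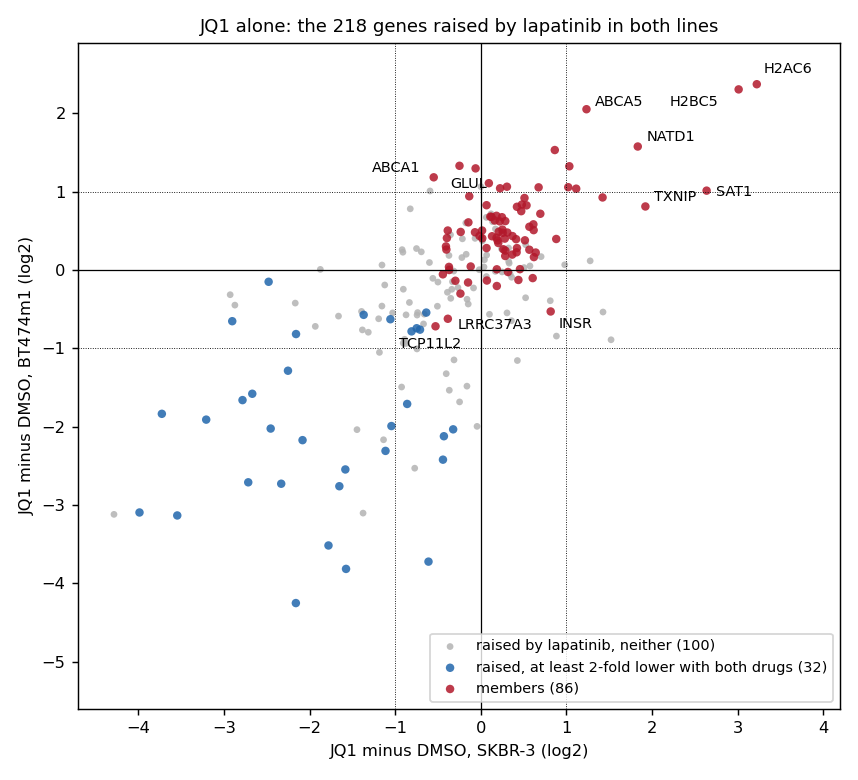
JQ1 minus DMSO (log2) in SKBR-3 on the horizontal axis and BT474m1 on the vertical axis for the 218 genes that lapatinib raised in both lines at a value of 100 or more, 1 point per gene. The 86 genes (red) lie between -0.55 and 3.22 in SKBR-3 and between -0.72 and 2.37 in BT474m1, and the 32 genes that added JQ1 lowered at least 2-fold in both lines (blue) lie below 0 on both axes, with the other 100 genes in grey.

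Other genes that lapatinib raised in both lines were set beside the 86, split by both drugs minus lapatinib, a contrast that shares no library with JQ1 minus DMSO. The 32 genes lowered at least 2-fold by added JQ1 had a median of -1.72 with JQ1 alone in SKBR-3 and -2.01 in BT474m1, and 23 of the 32 were at least 2-fold lower in each line. The remaining 100 raised genes had medians of -0.33 and -0.24. The step made by lapatinib when JQ1 was already present, both drugs minus JQ1, had a median of 1.46 in the 86 genes, 1.31 in the 100 and 1.33 in the 32 genes in SKBR-3, and 1.21, 1.19 and 1.50 in BT474m1. Among the 86 genes, 71 in SKBR-3 and 58 in BT474m1 made this step at least 2-fold, where 9.79% and 12.4% of all genes kept did, and 53 did so in both lines, where 3.6% did. Against DMSO, the pair of drugs gave a value at least 2-fold higher for 82 genes in SKBR-3 (against 10.8% of all genes kept), 82 in BT474m1 (against 14.2%) and 78 in both (against 4.46%). Both contrasts hold the library with both drugs, which the rule used, so that these counts describe the choice and nothing is read from them.

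**Figure D3:**
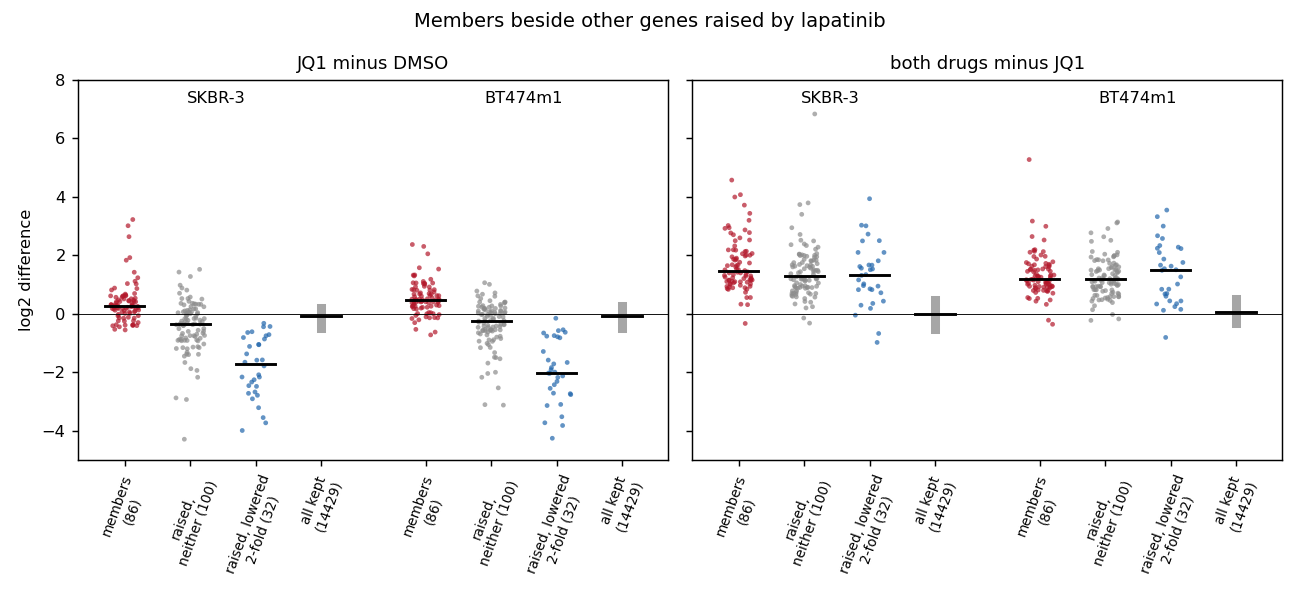
Log2 differences of JQ1 minus DMSO (left) and both drugs minus JQ1 (right) for the 86 genes (red), the other 100 lapatinib-raised genes (grey) and the 32 lowered by added JQ1 (blue), 1 point per gene with the median as a bar, and the median and middle part (from the lower to the upper quartile) of the 14429 genes kept. With JQ1 alone the medians are 0.26, -0.33 and -1.72 in SKBR-3 and 0.48, -0.24 and -2.01 in BT474m1. In both drugs minus JQ1, which holds a library that split the sets, they are 1.46, 1.31 and 1.33 in SKBR-3 and 1.21, 1.19 and 1.50 in BT474m1.

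The limit of -0.25 let genes through on one side only, and the values on either side of 0 describe the choice. In SKBR-3, 67 of the 86 genes were above 0 in both drugs minus lapatinib, as were 5508 of the 14429 genes kept, and 14 were at least 2-fold higher, where 3.22% of all genes kept were. In BT474m1, 70 were above 0, as were 6837 of all genes kept, and 5 at least 2-fold higher, against 5.2%. Below 0 were 19 genes in SKBR-3 and 16 in BT474m1, and the counting interval lay below 0 for 6 and 9 of them, where it did for 39.9% and 37.7% of all genes kept. It did so in both lines for SCIN and TRAPPC6A. SCIN was at -0.16 (95% interval -0.20 to -0.13) in SKBR-3 and at -0.25 (-0.41 to -0.09) in BT474m1, and TRAPPC6A at -0.19 (-0.33 to -0.05) and -0.15 (-0.26 to -0.04). TSGA10 and YPEL1 were the 2 genes that added JQ1 raised at least 2-fold in both lines (against 1.14% of all genes kept). TSGA10 lay at that limit in BT474m1, and the number of such genes was 1 with a pseudocount of 10 and 3 under a median of ratios scaling. For 21 genes the change with added JQ1 stayed within 0.25 of 0 in both lines (24.4%, against 17.8% of all genes kept), HDAC5, TTBK2, CCNDBP1, SLC27A1, MBOAT2 and GLUL among them, and the rule had set the lower side of that range. Both drugs gave the highest of the 4 libraries for 66 genes in SKBR-3 and 68 in BT474m1, and for 54 in both lines (62.8%, against 11.2% of all genes kept). The rule used 3 of these 4 libraries, and nothing is read from that share.

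The step of JQ1 on top of lapatinib, which the rule limited at -0.25, was also set beside the step of JQ1 alone, as a description. The step with lapatinib minus the step without it had a median over the 86 genes of 0.03 in SKBR-3 and -0.21 in BT474m1, with ranges from -1.52 to 2.09 and from -1.90 to 1.48. DDIT3, CCDC28A and MXI1 in SKBR-3 and CYP1A1 in BT474m1 were at least 2-fold above the sum of the single drugs. SAT1 and H2AC6 in SKBR-3, and GLUL, H2AC6 and H2BC5 in BT474m1, were at least 2-fold below it. Of all genes kept, 3.9% in SKBR-3 and 4.72% in BT474m1 were as far above, and 7.58% and 4.73% as far below, so that the numbers of members past 2-fold were near or under the background.

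**Figure D4:**
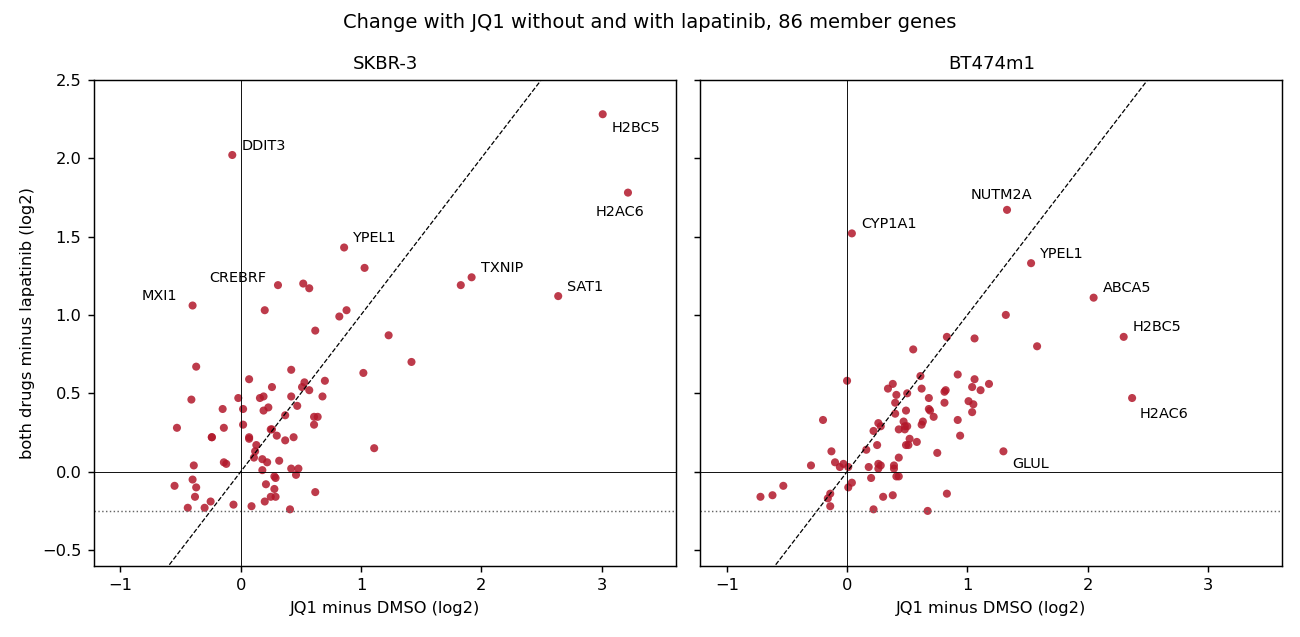
Both drugs minus lapatinib (vertical, log2) against JQ1 minus DMSO (horizontal, log2) for the 86 genes in SKBR-3 (left) and BT474m1 (right), 1 point per gene. The dashed line marks equal steps, with DDIT3 (2.02 against -0.07) farthest above it in SKBR-3 and H2AC6 (0.47 against 2.37) farthest below it in BT474m1, and the dotted line is the limit of -0.25 set by the rule.

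FOXO target genes had the largest share of members of the 46 gene lists. Of 27 FOXO target genes kept, 5 are among the 86 (18.5%, against 0.596% of all genes kept): PIK3IP1, TXNIP, KLHL24, MXI1 and INSR. Lapatinib raised 11 of the 27 at least 2-fold in both lines (against 4.39% of all genes kept), a contrast that the rule used. The list is textbook knowledge written with earlier results of these data known, and so is no independent evidence.

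PIK3IP1 (Entrez 113791) encodes a membrane protein that inhibits PI3K. Its value in SKBR-3 was 338 under DMSO, 2007 under lapatinib, 254.5 under JQ1 and 2760 under the pair. In BT474m1 the values were 417 under DMSO, 2533 under lapatinib, 514 under JQ1 and 2265 under the pair. The libraries with lapatinib stood far above those without it in each line, with lapatinib changes of 2.57 (SKBR-3) and 2.60 (BT474m1). With JQ1 alone it was -0.41 (-0.61 to -0.21) in SKBR-3 and 0.30 (0.17 to 0.43) in BT474m1, on opposite sides of 0.

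TXNIP (Entrez 10628) binds thioredoxin and limits glucose uptake. SKBR-3 had 1555 under DMSO, 10881 under lapatinib, 5896 under JQ1 and 25780 under the pair. BT474m1 had 4060 under DMSO, 14456 under lapatinib, 7119 under JQ1 and 20571 under the pair. Every treatment lay above DMSO in both lines, and both drugs gave the highest value. The JQ1 step alone was 1.92 (1.86 to 1.99) and 0.81 (0.77 to 0.85), and on top of lapatinib 1.24 (1.22 to 1.27) and 0.51 (0.49 to 0.53).

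KLHL24 (Entrez 54800), a substrate adaptor of a ubiquitin ligase, was at 982 under DMSO, 4904 under lapatinib, 1148 under JQ1 and 6494 under the pair in SKBR-3 and at 898 under DMSO, 3081 under lapatinib, 1850 under JQ1 and 4493 under the pair in BT474m1. It rose with JQ1 alone in BT474m1, by 1.04 (0.96 to 1.12), while the value in SKBR-3 was 0.23 (0.12 to 0.33). MXI1 (Entrez 4601) competes with MYC for its partner MAX. In SKBR-3 MXI1 was at 141 under DMSO, 397 under lapatinib, 107 under JQ1 and 829.6 under the pair. In BT474m1 it was at 161 under DMSO, 738 under lapatinib, 213.5 under JQ1 and 722 under the pair. Adding JQ1 to lapatinib raised it in SKBR-3, by 1.06 (0.91 to 1.21), and left it level in BT474m1, at -0.03 (-0.15 to 0.08). INSR (Entrez 3643) encodes the insulin receptor, and was at 199 under DMSO, 737 under lapatinib, 351 under JQ1 and 1462 under the pair in SKBR-3 against 366 under DMSO, 834 under lapatinib, 253 under JQ1 and 785 under the pair in BT474m1. JQ1 alone went with a higher value in SKBR-3 and a lower one in BT474m1, 0.82 (0.61 to 1.03) against -0.53 (-0.69 to -0.37).

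FOXO3 itself, a target of AKT, is among the 86, with 829.6 under DMSO, 2342 under lapatinib, 1186 under JQ1 and 5365 under the pair in SKBR-3. In BT474m1 FOXO3 had 3318 under DMSO, 7360 under lapatinib, 4312 under JQ1 and 10845 under the pair. Added JQ1 raised it at least 2-fold in SKBR-3, by 1.20 (1.14 to 1.26), against 0.56 (0.53 to 0.59) in BT474m1. FOXO3B, also one of the 86, is a near-identical copy, and its value was between 0.403 and 0.594 times that of FOXO3 in each of the 8 libraries, so that reads of one may be counted in the other. Lapatinib raised 11 of the 27 FOXO targets kept at least 2-fold in both lines. CDKN1B (0.44 in SKBR-3 and -0.19 in BT474m1) and SOD2 (-0.16 and -0.08) were among those that it did not. Among raised FOXO targets that were left out, ERBB3 had lapatinib changes of 1.45 (SKBR-3) and 1.15 (BT474m1), and added JQ1 took it to -0.38 and -0.48 against lapatinib. FBXO32 rose by 3.07 and 1.85, and added JQ1 gave 1.15 and -0.53. RBL2, a pocket protein that represses E2F targets, rose by 1.03 and 1.45 and stood at -0.35 and -0.68 with added JQ1. IRS2, an insulin receptor substrate, rose by 1.64 and 2.45 and was not lowered (1.68 and 0.21), but its value with lapatinib in SKBR-3 was 24.5, under the limit of 100.

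**Figure D5:**
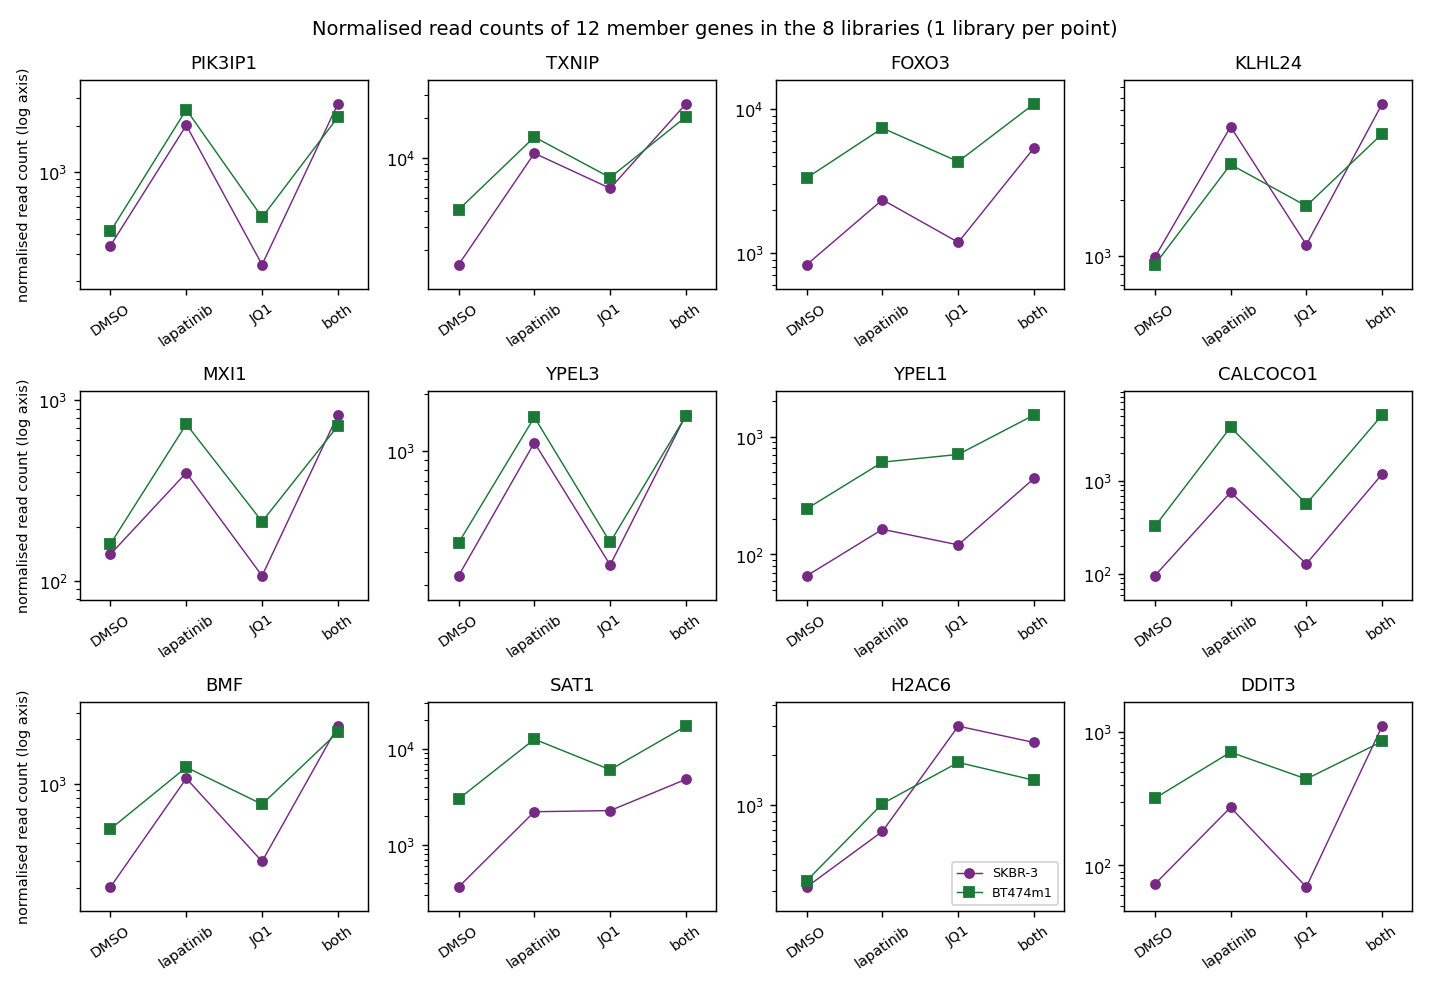
Normalised read counts (log axis, a separate scale for each gene) of 12 of the 86 genes in the 4 libraries of SKBR-3 (purple circles) and BT474m1 (green squares), 1 library per point, with lines only to guide the eye. Most genes show a zigzag with high values in the libraries that hold lapatinib, as in YPEL3 (224.1, 1111, 255.2 and 1548 in SKBR-3), while H2AC6 is highest with JQ1 alone.

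Growth arrest genes were the next group. Of 30 genes of cell cycle exit kept, 5 are among the 86 (16.7%, against 0.596% of all genes kept): YPEL3, YPEL2, MXI1, YPEL1 and CCNDBP1. Lapatinib raised 7 of the 30 at least 2-fold in both lines (against 4.39% of all genes kept) and lowered 2, a contrast that the rule used. None of 18 proliferation genes kept is among the 86 (0). Lapatinib lowered 18 of these 18 at least 2-fold in both lines, where 4.15% of all genes kept were lowered. The rule asks for a rise with lapatinib, so that it could take none of them, and nothing is read from the 0. YPEL proteins are small zinc-binding proteins, and YPEL3 is known to restrain growth.

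YPEL3 (Entrez 83719) was at 224 under DMSO, 1111 under lapatinib, 255 under JQ1 and 1548 under the pair in SKBR-3 and at 333 under DMSO, 1508 under lapatinib, 335 under JQ1 and 1536 under the pair in BT474m1. JQ1 alone left it at 0.19 (-0.03 to 0.41) and 0.01 (-0.14 to 0.16), so that the intervals held 0 in both lines. YPEL2 (Entrez 388403), of the same family, differed between the lines. It was at 22.2 under DMSO, 226 under lapatinib, 19.97 under JQ1 and 274.5 under the pair in SKBR-3, where 31 reads stood behind the DMSO value, and at 1511 under DMSO, 4334 under lapatinib, 2302 under JQ1 and 6635 under the pair in BT474m1. Lapatinib raised it by 3.29 (SKBR-3) and 1.52 (BT474m1).

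YPEL1 (Entrez 29799) was the member that added JQ1 raised most in the line with the smaller step. Its values were 65.85 under DMSO, 164 under lapatinib, 121 under JQ1 and 443 under the pair in SKBR-3. Those of BT474m1 were 245 under DMSO, 609.6 under lapatinib, 709 under JQ1 and 1534 under the pair. The step of added JQ1 was 1.43 (1.21 to 1.66) and 1.33 (1.23 to 1.44), and with JQ1 alone it was 0.86 (0.50 to 1.25) and 1.53 (1.39 to 1.68). CCNDBP1 (Entrez 23582), which encodes a helix-loop-helix protein that binds cyclin D, was at 319 under DMSO, 733.5 under lapatinib, 291 under JQ1 and 767 under the pair in SKBR-3 and at 298 under DMSO, 796 under lapatinib, 573 under JQ1 and 935 under the pair in BT474m1. It was level with added JQ1, at 0.06 (SKBR-3) and 0.23 (BT474m1). HBP1 (Entrez 26959) is a transcriptional repressor of cell cycle genes that no list held, and its promoter carries the forkhead word printed above. It was at 935 under DMSO, 3336 under lapatinib, 1047 under JQ1 and 4615 under the pair in SKBR-3 and at 1593 under DMSO, 3428 under lapatinib, 2468 under JQ1 and 4292 under the pair in BT474m1. HBP1 overlaps COG5 on the reference, and the labels name both a stranded and an unstranded library kit, so that reads of the 2 genes may not be told apart.

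Autophagy and lysosome genes were fewer. Of 57 autophagy genes kept, 3 are among the 86 (5.26%): CALCOCO1, GABARAPL1 and TP53INP1. Of 69 lysosome genes kept it is 1, ARSA (1.45%). CALCOCO1 (Entrez 57658), a receptor for autophagy of the endoplasmic reticulum, had the largest lapatinib change in the line where that change was smaller. It was at 95.9 under DMSO, 759 under lapatinib, 129 under JQ1 and 1190 under the pair in SKBR-3 and at 325 under DMSO, 3794 under lapatinib, 569.6 under JQ1 and 5136 under the pair in BT474m1. With JQ1 alone it was at 0.42 (0.10 to 0.75) and 0.81 (0.67 to 0.95).

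GABARAPL1 (Entrez 23710), which is joined to autophagosome membranes, was at 224 under DMSO, 668.5 under lapatinib, 222 under JQ1 and 929 under the pair in SKBR-3. BT474m1 showed 496.5 under DMSO, 1310 under lapatinib, 671 under JQ1 and 1280 under the pair. Added JQ1 gave 0.47 (0.35 to 0.60) in the former line and -0.03 (-0.12 to 0.05) in the latter. TP53INP1 (Entrez 94241), a stress protein that takes part in autophagy, was at 68.7 under DMSO, 457 under lapatinib, 140.5 under JQ1 and 706 under the pair in SKBR-3 and at 2772 under DMSO, 6469 under lapatinib, 5765 under JQ1 and 11634 under the pair in BT474m1. It rose at least 2-fold with each drug alone in both lines, by 1.02 (SKBR-3) and 1.06 (BT474m1) with JQ1. ARSA (Entrez 410), the lysosomal arylsulfatase A, was at 175 under DMSO, 364.5 under lapatinib, 469.7 under JQ1 and 591 under the pair in SKBR-3 and at 163 under DMSO, 351 under lapatinib, 309.7 under JQ1 and 540.5 under the pair in BT474m1, and in SKBR-3 the JQ1 value lay above the lapatinib value. GRN (Entrez 2896), which encodes the lysosomal and secreted protein progranulin, was at 1094 under DMSO, 2799 under lapatinib, 1747 under JQ1 and 3896 under the pair in SKBR-3 and at 1633 under DMSO, 3628 under lapatinib, 3392 under JQ1 and 4899 under the pair in BT474m1. TMEM106B, a lysosomal membrane protein, was at 1955 under DMSO, 4855 under lapatinib, 2111 under JQ1 and 5174 under the pair in SKBR-3 and at 2748 under DMSO, 5975 under lapatinib, 4402 under JQ1 and 8280 under the pair in BT474m1. GRN and TMEM106B are not in the lysosome list.

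Transporters and metabolic enzymes are given next, and no list joins them. ABCA1 (Entrez 19), the cholesterol efflux transporter, was at 19.3 under DMSO, 100.3 under lapatinib, 12.9 under JQ1 and 94.1 under the pair in SKBR-3, with 27 reads with DMSO, and at 212 under DMSO, 931 under lapatinib, 482 under JQ1 and 1369 under the pair in BT474m1. JQ1 alone raised it in BT474m1, by 1.18 (1.02 to 1.35), and in SKBR-3 the value was -0.55 (-1.50 to 0.30). ABCA5 (Entrez 23461), of the same transporter family, was at 475 under DMSO, 1225 under lapatinib, 1118 under JQ1 and 2247 under the pair in SKBR-3 and at 235 under DMSO, 916 under lapatinib, 976 under JQ1 and 1974 under the pair in BT474m1. Each drug alone raised it at least 2-fold in both lines, and in BT474m1 the JQ1 value exceeded the lapatinib value. These were 2 of the 37 transporters of the ABC family kept (5.41%). GLUL (Entrez 2752), the glutamine synthetase, was at 7351 under DMSO, 15142 under lapatinib, 7046 under JQ1 and 13073 under the pair in SKBR-3 and at 2632 under DMSO, 7416 under lapatinib, 6462 under JQ1 and 8092 under the pair in BT474m1. JQ1 alone was close to DMSO in SKBR-3, at -0.06 (-0.10 to -0.02), a sign that turned under a median of ratios scaling, and raised it in BT474m1, by 1.30 (1.25 to 1.34). SLC27A1, a fatty acid transporter, was the 1 member among 256 solute carriers kept (0.391%, against 0.596% of all genes kept). Its values were 75.9 under DMSO, 179.9 under lapatinib, 92.8 under JQ1 and 175 under the pair in SKBR-3. In BT474m1 they were 136 under DMSO, 348 under lapatinib, 161 under JQ1 and 391 under the pair. CLU, the secreted chaperone clusterin, was at 5525 under DMSO, 13679 under lapatinib, 6439 under JQ1 and 14258 under the pair in SKBR-3 and at 3740 under DMSO, 10411 under lapatinib, 5751 under JQ1 and 12779 under the pair in BT474m1. In both genes the libraries with lapatinib lay above those without it in each line.

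BMF, DDIT3, SAT1, CREBRF and CRY2 follow one by one, and no list joins them. BMF (Entrez 90427), a pro-apoptotic protein with a BH3 domain, was at 202 under DMSO, 1083 under lapatinib, 299.6 under JQ1 and 2434 under the pair in SKBR-3. BT474m1 had BMF at 495.5 under DMSO, 1287 under lapatinib, 727 under JQ1 and 2215 under the pair. Added JQ1 gave 1.17 (1.08 to 1.26) and 0.78 (0.71 to 0.86), and JQ1 alone 0.57 (0.35 to 0.79) and 0.55 (0.44 to 0.67). It was the 1 of 17 kept genes of the BCL2 family among the 86 (5.88%). DDIT3 (Entrez 1649) encodes CHOP, a transcription factor of the endoplasmic reticulum stress response. It was at 72.3 under DMSO, 273 under lapatinib, 68.9 under JQ1 and 1113 under the pair in SKBR-3 and at 319 under DMSO, 709 under lapatinib, 446 under JQ1 and 854 under the pair in BT474m1. In SKBR-3 JQ1 alone was level, at -0.07 (-0.47 to 0.34), and added to lapatinib it gave 2.02 (1.86 to 2.19), the widest gap between these steps among the 86 in that line. In BT474m1 both steps were small, at 0.48 (0.34 to 0.63) and 0.27 (0.16 to 0.38). DDIT3 overlaps MARS1 on the reference, with the same limit.

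SAT1 (Entrez 6303), the enzyme that starts polyamine breakdown, was at 364 under DMSO, 2210 under lapatinib, 2271 under JQ1 and 4806 under the pair in SKBR-3 and at 3000 under DMSO, 12554 under lapatinib, 6048 under JQ1 and 17180 under the pair in BT474m1. In SKBR-3 the values with lapatinib and with JQ1 were nearly level, with log2 differences from DMSO of 2.60 and 2.64. CREBRF (Entrez 153222), a regulator of the unfolded protein response, was at 43 under DMSO, 400.5 under lapatinib, 53.5 under JQ1 and 916 under the pair in SKBR-3 and at 151 under DMSO, 743 under lapatinib, 211 under JQ1 and 911 under the pair in BT474m1. Added JQ1 raised it at least 2-fold in SKBR-3, by 1.19 (1.05 to 1.34), against 0.29 (0.19 to 0.40) in BT474m1. CRY2, a repressor of the circadian clock, was at 201 under DMSO, 563 under lapatinib, 211 under JQ1 and 850.2 under the pair in SKBR-3 and at 218 under DMSO, 441 under lapatinib, 387 under JQ1 and 802 under the pair in BT474m1. It was the 1 of 23 clock genes kept that is a member (4.35%), and added JQ1 gave 0.59 (SKBR-3) and 0.86 (BT474m1).

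A pair of histone genes stood apart from the rest. Replication-dependent histone messages mostly end in a stem-loop without a poly(A) tail, and these libraries were of poly(A) RNA. H2AC6 (Entrez 8334), which encodes a histone H2A, was at 318 under DMSO, 689 under lapatinib, 2976 under JQ1 and 2370 under the pair in SKBR-3 and at 346.5 under DMSO, 1013 under lapatinib, 1796 under JQ1 and 1402 under the pair in BT474m1. H2BC5 (Entrez 3017), which encodes a histone H2B, was at 145 under DMSO, 299 under lapatinib, 1173 under JQ1 and 1459 under the pair in SKBR-3 and at 405 under DMSO, 947 under lapatinib, 2004 under JQ1 and 1724 under the pair in BT474m1. JQ1 alone raised them more than lapatinib did, H2AC6 by 3.22 (SKBR-3) and 2.37 (BT474m1) and H2BC5 by 3.01 (SKBR-3) and 2.30 (BT474m1). H2AC6 is the one gene of the 86 whose interval was below 0 in both drugs minus JQ1 in both lines, at -0.33 (SKBR-3) and -0.36 (BT474m1). Of 44 histone genes kept, JQ1 raised 24 at least 2-fold in both lines, and lapatinib raised 3 and lowered 9. Of all genes kept, these shares were 1.16%, 4.39% and 4.15%, so that the 3 raised by lapatinib are near the background. Near-identical copies make single histone genes uncertain.

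The remaining genes with large lapatinib changes have mixed roles. CYP1A1 (Entrez 1543), a monooxygenase under the aryl hydrocarbon receptor, was at 33.6 under DMSO, 186 under lapatinib, 25.8 under JQ1 and 173 under the pair in SKBR-3 and at 148 under DMSO, 2056 under lapatinib, 152 under JQ1 and 5900 under the pair in BT474m1. In BT474m1 added JQ1 gave 1.52 (1.46 to 1.58) where JQ1 alone was level, at 0.04 (-0.19 to 0.27). TCP11L2 (Entrez 255394) had the largest lapatinib change of the 86 in SKBR-3, 3.76, with 17.2 under DMSO, 246 under lapatinib, 11.6 under JQ1 and 298.5 under the pair, and in BT474m1 it had 90.5 under DMSO, 492 under lapatinib, 54.6 under JQ1 and 441 under the pair. The JQ1 library was the lowest of the 4 in both lines, with an interval that held 0 in SKBR-3, at -0.53 (-1.53 to 0.38), and -0.72 (-1.08 to -0.39) in BT474m1. The zinc finger gene ZNF862 was at 103 under DMSO, 392 under lapatinib, 117 under JQ1 and 393.5 under the pair in SKBR-3 and at 278 under DMSO, 1148 under lapatinib, 369.6 under JQ1 and 1617 under the pair in BT474m1. NATD1 (Entrez 256302) was at 17.2 under DMSO, 206 under lapatinib, 63.8 under JQ1 and 472 under the pair in SKBR-3, where 24 reads stood behind the DMSO value, and at 241 under DMSO, 797 under lapatinib, 719.8 under JQ1 and 1391 under the pair in BT474m1. Each drug alone raised it at least 2-fold in both lines. TSGA10 was at 48 under DMSO, 144 under lapatinib, 99.2 under JQ1 and 357 under the pair in SKBR-3 and at 127 under DMSO, 346 under lapatinib, 319 under JQ1 and 694.5 under the pair in BT474m1, with the same pattern. CCDC28A was at 80.2 under DMSO, 268 under lapatinib, 61.85 under JQ1 and 426 under the pair in SKBR-3 and at 57.5 under DMSO, 175 under lapatinib, 57.5 under JQ1 and 263 under the pair in BT474m1.

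JQ1 alone gave the lowest of the 4 libraries in both lines for 7 genes, which were RTN2, CARF, TCEA2, LRRC37A3 and JMY beside TCP11L2 and CCDC28A, and its change from DMSO was under 2-fold in each. Their share, 8.14%, was under the 12.6% of all genes kept. RTN2, which encodes a reticulon that shapes the endoplasmic reticulum, was at 281 under DMSO, 1178 under lapatinib, 238 under JQ1 and 1371 under the pair in SKBR-3 and at 80.6 under DMSO, 249 under lapatinib, 65.2 under JQ1 and 257 under the pair in BT474m1. TCEA2, an elongation factor of RNA polymerase II, was at 162.5 under DMSO, 395 under lapatinib, 132 under JQ1 and 336 under the pair in SKBR-3 and at 128 under DMSO, 472 under lapatinib, 116 under JQ1 and 429 under the pair in BT474m1. LRRC37A3 belongs to a family of near-identical copies, and was at 58 under DMSO, 194 under lapatinib, 44.1 under JQ1 and 173 under the pair in SKBR-3 and at 104 under DMSO, 259 under lapatinib, 67.1 under JQ1 and 232.5 under the pair in BT474m1. CARF was at 33.6 under DMSO, 135 under lapatinib, 24.5 under JQ1 and 115 under the pair in SKBR-3 and at 122 under DMSO, 382.5 under lapatinib, 117 under JQ1 and 390.1 under the pair in BT474m1. In these 4 genes the libraries with lapatinib lay above those without it in each line. The rule and the choice by the lowest JQ1 library set this in advance, and nothing is read from it. PCMTD1 and PCMTD2 are close copies of each other, and NUTM2A and the pseudogene SNX29P2 also share sequence with other loci, so that their values are uncertain.

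A further 27 genes are given by their range. They were ENPP5, SNED1, ZNF552, IGIP, PNRC1, SIAE, LOC90110, ING4, LOC154761, MAPK8IP3, KIAA0513, MMAA, PEX6, SNX30, GLI4, NMRK1, ALCAM, DNAL4, MIGA1, PAXIP1-DT, TRAPPC6A, KBTBD3, KIAA0319L, ZNF490, ZNF449, ZNF251 and PPP2R3A. Their values with lapatinib ran from 106.1 (GLI4) to 4903 (ALCAM, a cell adhesion molecule) in SKBR-3 and from 203.6 (KBTBD3) to 7434 (ALCAM) in BT474m1. The lapatinib change ran from 1.02 (ZNF251) to 1.89 (NMRK1) in SKBR-3 and from 1.02 (PPP2R3A) to 2.98 (ENPP5) in BT474m1. With JQ1 alone they ran from -0.40 (ING4, a reader of methylated histone H3) to 0.70 (PAXIP1-DT) in SKBR-3 and from -0.13 (SNED1) to 1.11 (KIAA0513) in BT474m1, with medians of 0.26 and 0.47. KIAA0513 in BT474m1 was the 1 value of these past 2-fold. The step of added JQ1 lay between -0.22 (KIAA0513) and 0.58 (PAXIP1-DT) in SKBR-3 and between -0.15 (TRAPPC6A) and 0.53 (LOC154761) in BT474m1.

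The lines differed in the size of the response for some genes. The lapatinib change was larger in SKBR-3 for 48 of the 86 genes (55.8%, against 49.2% of all genes kept) and in BT474m1 for 38. The changes lay within 0.5 of each other for 57 (66.3%, against 53.9%). They were over 1 apart for 10 genes (11.6%, against 21.9% of all genes kept). The rule used these changes, and nothing is read from the counts. MACROD2, which binds mono-ADP-ribosylated proteins, was at 30.1 under DMSO, 247 under lapatinib, 37.4 under JQ1 and 289.6 under the pair in SKBR-3 and at 84.4 under DMSO, 173 under lapatinib, 177 under JQ1 and 261 under the pair in BT474m1, with lapatinib changes of 2.99 (SKBR-3) and 1.03 (BT474m1). ABTB1 went the other way, with 73.7 under DMSO, 209.8 under lapatinib, 137 under JQ1 and 429.9 under the pair in SKBR-3 and 65.5 under DMSO, 537 under lapatinib, 86.5 under JQ1 and 545 under the pair in BT474m1, and lapatinib changes of 1.50 (SKBR-3) and 3.01 (BT474m1). HDAC5, a class II histone deacetylase, was at 584 under DMSO, 1450 under lapatinib, 538 under JQ1 and 1501 under the pair in SKBR-3 and at 152 under DMSO, 949 under lapatinib, 156.5 under JQ1 and 904 under the pair in BT474m1. With DMSO, BT474m1 exceeded SKBR-3 at least 4-fold for 11 of the genes, and SKBR-3 exceeded BT474m1 by as much for 1, SCIN. Of all genes kept 14.7% and 6.76% differed so. SCIN, which severs actin filaments, was at 3047 under DMSO, 9348 under lapatinib, 3615 under JQ1 and 8348 under the pair in SKBR-3 and at 82 under DMSO, 429.5 under lapatinib, 131 under JQ1 and 361 under the pair in BT474m1. The difference between the lines was not tested, because each line has 1 library per treatment.

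To see what the choice in both lines hides, the rule was also applied in 1 line and read in the other, an alternative chosen after seeing the data. SKBR-3 alone gave 426 genes, 393 of them with a lapatinib value of 100 or more in BT474m1. Of these 393, 117 (29.8%) were at least 2-fold higher with lapatinib in BT474m1, against 9.41% of the genes kept at that level, and 319 (81.2%) met the limit of -0.25 with added JQ1, against 68.5%. With JQ1 alone 12 (3.05%) were at least 2-fold lower there, against 7.17%. BT474m1 alone gave 496 genes, 324 of them at that level in SKBR-3. Of these 324, 108 (33.3%) were at least 2-fold higher with lapatinib in SKBR-3, against 8.4%, and 248 (76.5%) met the limit with added JQ1, against 63.7%. With JQ1 alone 15 (4.63%) were at least 2-fold lower, against 6.18%. Most of the genes that met the rule in 1 line and were read in the other thus did not reach 2-fold with lapatinib there.

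Of 46 gene lists written for these lines and drugs, 20 hold a member and 26 hold none. The lists without a member include nuclear receptors (37 genes kept), luminal transcription factors (24), Notch signalling (29), WNT signalling (33), BMP and TGF-beta signalling (42), interferon-stimulated genes (32), fatty acid oxidation (54), negative regulators of ERBB signalling (43), ribosomal proteins (79) and the 5 markers of BET inhibition kept. The rule took 0.596% of all genes kept, so that an absence from lists of these sizes is near the background, and nothing is read from it. Zinc finger genes hold 6 of 519 (1.16%), and lysine demethylases and methyltransferases hold KDM7A, 1 of 55 (1.82%). These and the other shares of members in lists stand against that 0.596%, and a single member of a list is not read as a result. In total 44 of the 86 genes are in at least 1 list and 42 in none. No 2 of the 86 are neighbours on a chromosome among the genes of the tables, and the 85 with a known position lie on 19 chromosomes. The spans of 16 overlap another gene of the tables, with the limit given for HBP1 and DDIT3. Among them are TSGA10 (with C2orf15), YPEL1 (PPIL2), ABCA5 (ABCA10) and TP53INP1 (NDUFAF6).

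The depth ran from 21420113 to 34112379 reads on genes per library, and the lowest read number behind a member in any library was 18 (TCP11L2 with JQ1 in SKBR-3). The 86 genes took 0.293% of the summed values with DMSO and 1.051% with both drugs in SKBR-3, and 0.362% and 1.354% in BT474m1. ERBB2 and the keratins KRT8, KRT18 and KRT19 were high in each library. ESR1 was at 840.2 with DMSO in BT474m1 and at 4.295 in SKBR-3. CDH1, the epithelial cadherin, was at 19413 with DMSO in BT474m1 and at 4.295 in SKBR-3. Of the markers of other cell types, the 5 leukocyte genes summed to between 2.064 and 80.72, the 3 endothelial genes to between 6.997 and 189.1, the 5 basal genes to between 37.75 and 85.12 and the 3 adipocyte genes to between 11.59 and 109. The 7 fibroblast genes summed to between 30.27 and 1263, most of it COL1A1 in each library, and THY1 was at 3.579 with DMSO and 50.9 with JQ1 in SKBR-3. PTPRC, DCN, LUM and PECAM1 were at or near 0 throughout, while LYZ was higher in the libraries with lapatinib in BT474m1 (11.79, 80.72, 14.01 and 71.14 with DMSO, lapatinib, JQ1 and both drugs). PLIN1 was higher with lapatinib in both lines, at 15.75, 58.19, 7.088 and 44.71 in SKBR-3 and at 11.32, 109, 11.59 and 99.13 in BT474m1, and the part of these genes and of THY1 in the results was not tested. In bulk RNA, fewer cells that express a gene and less RNA per cell cannot be told apart.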

How the data were processed

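Poly(A) RNA of 8 cultures was sequenced, 1 library for each of 8 groups. The submitters' processing notes name the hg19 genome build, Picard 1.88, SAMtools 1.2 and RSEM, with no role or order given. The study's methods name hg38, STAR and Salmon instead, and which of these made the deposited values was not settled. The labels name both a stranded KAPA kit and an Illumina TruSeq RNA kit, which does not mark strand, and the strand setting of the counting is not given in the sources used here, so that values of overlapping genes are uncertain. The authors deposited 1 table per library with a scaled signal per gene in its second column, that is, read counts divided so that the upper quartile of the values above 0 is 1000. A value of 1 read, recovered from the steps between low values, was 0.4715 to 0.7657, and 83.8% to 85.2% of the values were whole reads within a tolerance of 0.02. This was too few for a count model. Columns of other samples numbered 0.

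Differences were taken on log2(value + 1), which understates changes of low genes. A gene was kept when any library had it at 10 or more (14429 of 20531). The 95% intervals are exact Clopper-Pearson intervals of the recovered reads of 2 libraries, and reads from PCR without molecular identifiers are not independent molecules, so that the intervals cover counting error only. With 1 library per group no test was run, and called means 2-fold. Symbols were matched by Entrez identifier to RefSeq (20372 of 20531 genes). The members and the gene lists were chosen with earlier results of these data known. Genes were named where they had one of the 12 largest lapatinib changes in the line with the smaller one, the 10 largest changes with added JQ1, the 6 highest or 6 lowest changes with JQ1 alone, the 6 largest differences between lines, a place in a gene list (up to 6 per list), or a place just inside or outside a limit of the rule. PLD1, PCMTD1, PCMTD2, HDAC5, SH3YL1, MBOAT2, GRN, DDIT3, SNX29P2, HBP1, JMY and GLUL, and the genes named only in the group of 27, meet none of these or were named for completeness after their values were seen. The alternatives tried were another pseudocount, other scalings, other limits of the rule, other filters and other motif searches. The scripts were tested on simulated data. Values were computed in Python 3.11.15 with pandas 2.3.3 and scipy 1.17.1, and drawn with matplotlib 3.10.9.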

Additional observations from a re-analysis of the deposited data

Results flagged for a closer look

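For some genes the lines moved in opposite directions, with counting intervals on either side of 0. These differences were not tested, since each line has 1 library per treatment. With JQ1 alone there were 7 such genes (8.14%, against 8.91% of all genes kept), so that their number is near the background. They are given as SKBR-3 then BT474m1 on the log2 scale. APPL2, an adaptor of endosomes, was at 0.61 and -0.10. GLUL was at -0.06 and 1.30, and the opposite signs were lost under the median of ratios scaling. INSR was at 0.82 and -0.53, MXI1 at -0.40 and 0.41, and PCMTD2 at -0.24 and 0.49. PIK3IP1 was at -0.41 and 0.30, and ZNF490 at -0.39 and 0.50.

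In both drugs minus lapatinib, a contrast that the rule used, there were also 7, against 11.3% of all genes kept. GLUL was at -0.21 and 0.13, KDM7A, a histone demethylase, at 0.35 and -0.24, and JMY, which nucleates actin filaments, at 0.40 and -0.17. KIAA0513 was at -0.22 and 0.52, PIK3IP1 at 0.46 and -0.16, SH3YL1 at 0.22 and -0.22, and TCP11L2 at 0.28 and -0.16. These 7 genes kept opposite signs under another pseudocount and both other scalings, as did 6 of the 7 with JQ1 alone.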

How the results depend on the processing

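The rule took 86 genes, and the number followed its limits. It was 195 with no limit on the value, 56 when both drugs minus lapatinib had to be 0 or more, and 55 when the lower bound of the counting interval of the lapatinib change had to be 1 or more in both lines. Applied in 1 line alone, which was added after seeing the data, it took 426 genes in SKBR-3 and 496 in BT474m1. These follow from the limits themselves. Under a pseudocount of 10, a median of ratios scaling and equal totals, the numbers were 74, 82 and 75, and with a value limit of 50 or 200 or a JQ1 limit of -0.5 they were 103, 65 and 110. With a pseudocount of 10, added JQ1 raised 1 gene in place of 2 at least 2-fold in both lines. The forkhead word was found in 9 genes in place of 14 when only the 250 bases before the start were searched (4.8% of the genes kept held it) and in 7 on the transcribed strand alone (2.7%). In BT474m1 the share of genes at least 2-fold higher with both drugs than with JQ1 was 12.4% of all genes kept and 8.11% with a filter of 100. Equal totals moved the median of all genes by -0.14 in JQ1 minus DMSO of SKBR-3, where the members' median was then 0.11, and the median of ratios moved it by 0.11 in both drugs minus lapatinib of SKBR-3. The number of members at least 2-fold lower with JQ1 alone was 0 in each line under these 3 alternatives. The labels pair no replicates, and a fit with the line as a block was not run. Depth limits TCP11L2, NATD1, ABCA1 and YPEL2 in SKBR-3, where 24 to 31 reads stood behind the DMSO values.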
